A study of Mus musculus with 12 samples.

Results

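Tetraspanins are small membrane proteins that cross the bilayer several times and gather integrins, immunoglobulin proteins and proteases into patches of the membrane. In oligodendrocytes, the cells that wrap axons with myelin, some of them are known from myelin membrane and others from the endosomes that release exosomes, small vesicles passed to other cells. The mRNAs of 9 such tetraspanins, chosen by their symbols from the 21937 genes of the table, were followed in myelin: Cd9, Cd63, Cd81, Cd82, Cd151, Tspan2, Tspan3, Tspan7 and Tspan15.

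RNA was sequenced from a myelin-enriched light membrane fraction of the brains of male wild-type c57Bl6/N mice at P18 and P75 (postnatal days) and in older animals of 6 and 24 months. Each age had 3 libraries, which makes 12. The authors describe those of 6 months as coming from individual brains. At the other ages the number of mice behind each library is not given in the sources used here. No group carried an allele or a treatment, and age was the only factor compared. The values are normalized read counts, that is, reads on a gene divided by a size factor of the library. The fraction is not pure: it holds RNA from any membrane or cell piece of like density, and for a bulk sample fewer cells of a type and less RNA per cell cannot be told apart.

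The libraries held 20299052 to 27214385 reads on genes. All 6 myelin markers (Mbp, Mog, Mag, Cnp, Mobp and Opalin) were detected in every library, and their summed normalized read count lay between 2284520 and 5907596 at P18 and between 1165814 and 2260943 at the later ages. Mbp made up most of that sum, with a mean of 2002431.1 over the 12 libraries. Of these 6 markers, 5 fell and 0 rose from P18 to P75, where 22.9% and 25.9% of all tested genes did. The sum of 8 microglial markers was 3423 to 4378 at P18, 4500 to 5154 at P75, 5747 to 6444 at 6 months and 7682 to 9174 at 24 months. The sum of 6 neuronal markers lay between 132644 and 191836 over the 12 libraries. For 6 astrocyte markers it was 51362 to 72180 at P18 and 57394 to 66828 at P75. It was 69315 to 79766 at 6 months, above P75 without overlap, and 64731 to 74805 at 24 months. Of these 6, 2 rose and 0 fell from P75 to 6 months, where 31.2% and 29.4% of all tested genes did. The 2 were Slc1a3 (mean 8649.5 at P75 and 15370.1 at 6 months) and Gja1 (5961.0 and 7486.8). The sum of 6 endothelial markers was 341 to 385 at P18 and P75 and 457 to 549 at 6 and 24 months, with no overlap. Of these 6, 5 rose and 1 fell from P18 to 24 months, where 34.7% and 34.3% of all tested genes did. The fall was that of Cldn5, from a mean of 186.3 to 133.2. Markers of oligodendrocyte precursors (3 genes) summed to 2151 to 2379 at P18 and to 1041 to 1597 later. Of these 3, 1 fell and 0 rose from P18 to P75, where 22.9% and 25.9% of all tested genes did. The fall was that of Gpr17, from a mean of 1414.3 to 285.3. Pdgfra went from 682.3 to 661.6 and Cspg4 from 186.4 to 156.5, neither of them called. No marker was at 0 in any library, and the part of these cell types in the changes below was not tested.

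Replicate 3 of P18 stood apart from the other libraries of its age. Its myelin marker sum was 2284520, against 3922870 and 5907596 in replicates 1 and 2. Its astrocyte (51362), microglial (3423) and precursor (2151) sums were also the lowest of P18, and its neuronal (166796) and endothelial (385) sums the highest. Among the tetraspanins it held 63.1% of the mean of the other P18 libraries for Tspan2, 64.1% for Cd82, 71.5% for Cd151 and 77.6% for Tspan15, but 103.0% for Tspan3 and 104.6% for Tspan7. Values without it are given for the genes it moves most.

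Levels were compared between genes after division by exon length, as normalized read count per kb of merged exons in GENCODE vM1 on NCBIM37, the build of the files (mm9). Merged exons join all annotated transcripts of a gene, 7067 bases for Tspan7 and 2270 for Cd81, so the order depends on that length. Without the division Tspan7 was highest at every age. At P18 Cd81 stood highest at 4211.5 ± 326.8 (SD, n = 3). Tspan3 (2448.1 ± 76.0), Tspan2 (2356.5 ± 573.9) and Tspan7 (2152.5 ± 91.0) followed it with overlapping ranges. Cd63 came next at 1631.5 ± 167.9, then Cd9 at 1051.8 ± 44.9 and Tspan15 at 238.8 ± 34.0, and the ranges of Cd82 (143.2 ± 33.7) and Cd151 (99.9 ± 19.9) overlapped at the bottom.

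At 24 months fewer neighbours overlapped and Tspan2 stood lower. Cd81 was still highest at 6176.2 ± 356.6 per kb, followed without overlap by Tspan7 at 4841.4 ± 223.4, Tspan3 at 4243.2 ± 97.9 and Cd63 at 3832.8 ± 108.9. The level of Tspan2 was 952.9 ± 32.2, below Cd9 at 1370.9 ± 138.9. The lowest places were held by Cd82 (330.8 ± 51.9) and Cd151 (273.4 ± 18.8), whose ranges overlapped, and by Tspan15 (189.9 ± 12.5). At P75 the range of Tspan3 (3265.9 to 4369.6) overlapped those of Tspan7 and Cd63, and at 6 months the neighbours that overlapped were Tspan3 with Cd63 and Tspan2 with Cd9.

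**Figure D1:**
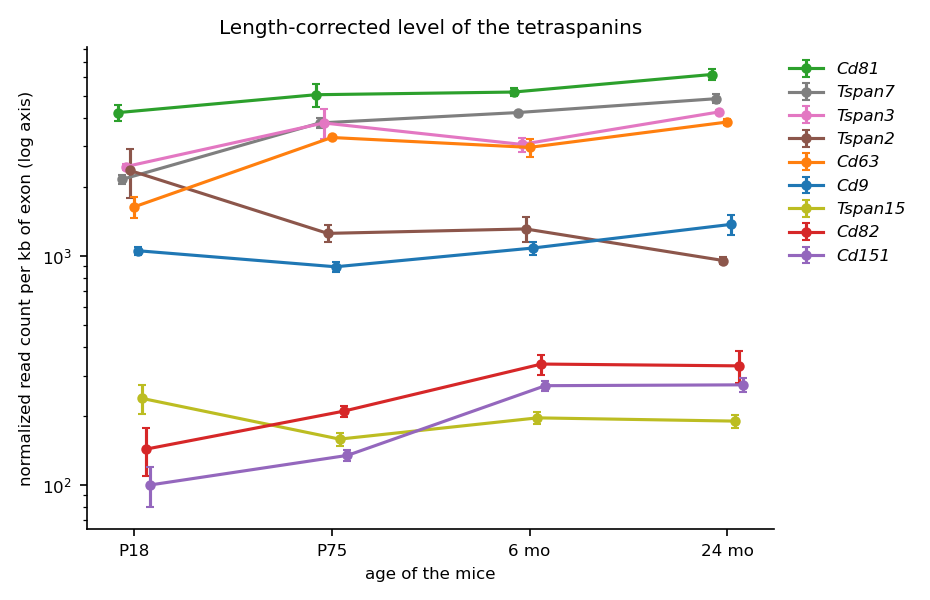
Mean normalized read count per kb of merged exons (log axis) of the 9 tetraspanins at each age, with error bars of 1 SD over 3 libraries and a line joining the ages of each gene. Cd81 is highest at every age, from a mean of 4211.5 at P18 to 6176.2 at 24 months, while Tspan2 goes from 2356.5 to 952.9.

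Summed over the 9 genes, the level per kb was 14334 ± 1093 at P18 (SD, n = 3). It was 18563 ± 1146 at P75 and 18617 ± 503 in the 6-month mice, and 22212 ± 848 in the oldest mice. Tspan2 made up 16.3% ± 2.89 of that sum at P18 and 6.8% ± 0.83, 7.0% ± 0.72 and 4.3% ± 0.26 at the later ages. Tspan7 made up 15.1% ± 1.69 at P18 and 20.5% ± 1.03 to 22.6% ± 0.51 later, and Cd63 11.4% ± 0.32 at P18 and 15.9% ± 1.04 to 17.7% ± 1.28 later. Cd81 held 27.1% to 29.4% of the sum at every age.

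Changes were tested on log2(normalized read count + 1) in 1 limma fit of all 12 libraries over 14634 genes (those whose mean reached 10), and called at a Benjamini-Hochberg adjusted p under 0.1. All 9 tetraspanins passed that filter. The adjusted p-values below come from that fit, and the comparisons share libraries with each other.

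From P18 to P75, 6 of the 9 rose and 3 fell, where 25.9% of all tested genes rose and 22.9% fell. Their median log2 change was 0.45, against 0.015 over all tested genes. Scaled to equal library totals, 4739 genes rose and 1827 fell, in place of 3783 and 3354, and the median of all genes moved to 0.139. Under that scaling 6 of the 9 still rose and 2 fell.

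From P75 to 6 months 4 rose and 1 fell, against 31.2% and 29.4% of all genes, with a median of 0.15 against 0.005. From 6 to 24 months 4 rose and 1 fell, against 16.6% and 12.7%, with a median of 0.20 against 0.028. Under equal totals 1394 genes rose and 1614 fell in that last step in place of 2435 and 1852, and 3 of the 9 rose. Across the whole span from P18 to 24 months 7 rose and 2 fell, against 34.7% and 34.3%, with a median of 0.79 against -0.01. From P75 to 24 months 7 rose and 1 fell, against 28.8% and 26.1%, with a median of 0.30 against -0.004. Under equal totals 4 of the 9 rose and 1 fell in that comparison, and 3567 genes rose and 3919 fell in place of 4219 and 3813.

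**Figure D2:**
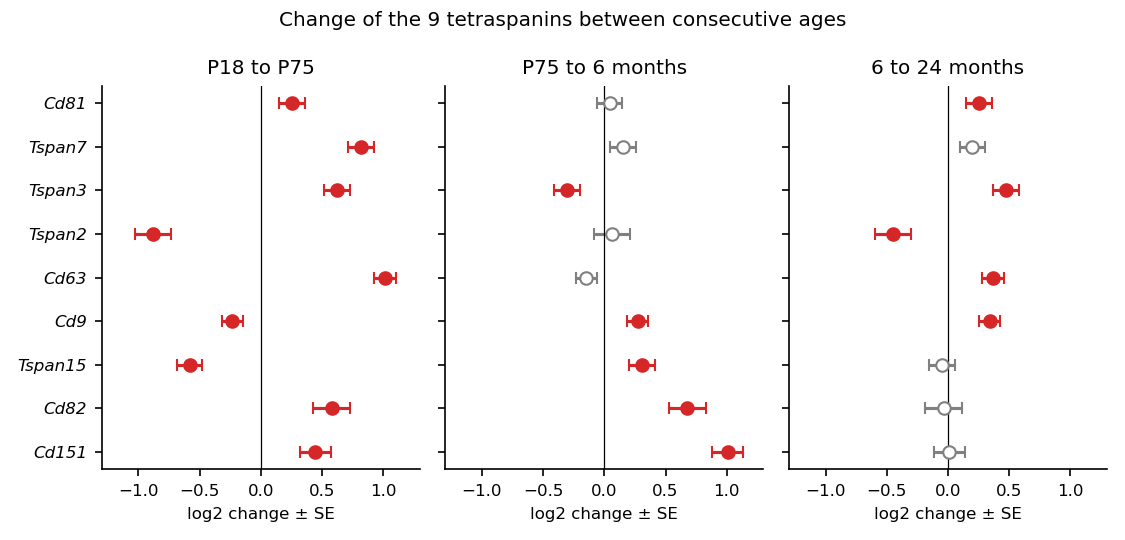
Log2 change of each tetraspanin in the 3 steps between consecutive ages, with error bars of 1 SE, filled in red where called at an adjusted p under 0.1 and open grey where not. From P18 to P75 Tspan2 (-0.88), Tspan15 (-0.58) and Cd9 (-0.23) lie below 0 and the other 6 above it, and Cd151 has the largest change from P75 to 6 months (1.01).

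Tspan2, a tetraspanin enriched in oligodendrocytes, showed the largest fall. Its normalized read counts were 12087, 12549 and 7778 at P18, then 6109, 5205 and 5907 at P75, 6109, 6696 and 5201 at 6 months, and 4394, 4503 and 4211 at 24 months. All P18 libraries lay above all later ones, the P75 and 6-month libraries overlapped, and the 24-month libraries were the lowest. The log2 change from P18 to P75 was -0.88 ± 0.15 (SE, adjusted p = 0.000203), a level 0.542 times as high. Without replicate 3 of P18 it was -1.10.

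After P75 the gene changed less. From P75 to 6 months the Tspan2 change was 0.06 ± 0.15 (adjusted p = 0.751), and from 6 to 24 months it fell by 0.45 ± 0.15 on the log2 scale (adjusted p = 0.0423). That last call was lost without replicate 1 or 2 of 6 months or replicate 3 of 24 months (adjusted p = 0.118, 0.154 and 0.102). The fall from P75 to 24 months, by 0.39 (adjusted p = 0.0392), was likewise lost without replicate 1 of P75 or replicate 3 of 24 months (adjusted p = 0.113 and 0.105). Over the whole span the change was -1.27 ± 0.15 (adjusted p = 1.41e-06), and leaving out single libraries moved it between -1.495 and -1.15. Of 6 myelin markers 5 fell and 0 rose over that span, with a median of -1.05, where 34.3% and 34.7% of all genes did. From P75 to 24 months 2 of these markers rose and 2 fell, with a median of 0.09 (28.8% and 26.1% of all genes).

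Cd9, a surface tetraspanin of many cells that is known from myelin and from exosomes, dipped and then rose. It stood at 2230, 2169 and 2050 at P18, 1766, 1931 and 1792 at P75, 2249, 2334 and 2047 at 6 months, and 2600, 2679 and 3127 at 24 months. The P75 libraries were the lowest and the 24-month libraries the highest, with no overlap at either end. The dip of 0.23 ± 0.09 on the log2 scale from P18 to P75 (adjusted p = 0.0429) was not called under equal library totals (-0.11, adjusted p = 0.474) or without replicate 1 of P18 or replicate 1 or 3 of P75 (adjusted p = 0.126, 0.121 and 0.101).

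The later rises of Cd9 were 0.27 from P75 to 6 months (adjusted p = 0.0156) and 0.34 from 6 to 24 months (adjusted p = 0.0146). From P75 to 24 months the level rose 1.53-fold (log2 change 0.61 ± 0.09, adjusted p = 5.09e-05). The sum of the microglial markers rose over the same ages, and also from P18 to P75, where Cd9 dipped. Of these 8, 5 rose and 2 fell from P75 to 6 months, where 31.2% and 29.4% of all genes did. From 6 to 24 months 3 rose and 0 fell, where 16.6% and 12.7% did. The astrocyte and endothelial sums also rose from P75 to 6 months. The part of these markers in the rises of Cd9 was not tested.

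Tspan3, which is known to associate with the myelin tight junction protein claudin-11, alternated from age to age. Its values were 8041, 7629 and 8067 at P18, 10555, 12126 and 14123 at P75, 9839, 9216 and 10618 at 6 months, and 13512, 14079 and 13552 at 24 months. P18 was lowest without overlap, while the P75 libraries spread widely and overlapped both later ages. Log2 changes were 0.62 ± 0.11 from P18 to P75 (adjusted p = 0.000236), -0.30 ± 0.11 from P75 to 6 months (adjusted p = 0.0239) and 0.47 ± 0.11 from 6 to 24 months (adjusted p = 0.00742). The middle fall was lost without replicate 3 of P75 (-0.20, adjusted p = 0.13). Cldn11 itself did not follow Tspan3: it fell by 1.29 from P18 to P75 (adjusted p = 2.22e-06), and its change from 6 to 24 months was -0.13 (adjusted p = 0.498).

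Cd63, a tetraspanin of late endosomes, lysosomes and exosomes, rose most from P18 to P75. Values of 1792, 1772 and 1483 at P18 were followed by 3398, 3422 and 3325 at P75, 2827, 3358 and 3001 at 6 months, and 3845, 4069 and 3941 at 24 months. Every later library lay above every P18 library, and those of 24 months were highest. The rise to P75 was 2.02-fold (log2 change 1.01 ± 0.09, adjusted p = 8.54e-07). The change from P75 to 6 months was -0.15 (adjusted p = 0.177), and a further rise of 0.37 ± 0.09 came between 6 and 24 months (adjusted p = 0.0107). The rise of 0.22 from P75 to 24 months (adjusted p = 0.0498) was lost under equal totals (0.18, adjusted p = 0.158) and without replicate 3 of P75 or replicate 2 of 24 months (adjusted p = 0.108 and 0.143).

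Cd81, another exosome tetraspanin, had the highest level of the 9 per kb of merged exons, though not before that division. It was measured at 10097, 9870 and 8713 at P18, 10117, 11545 and 12664 at P75, 11792, 12245 and 11226 at 6 months, and 13205, 14030 and 14824 at 24 months. The P18 libraries were lowest and the 24-month libraries highest, while P75 and 6 months overlapped. Across the whole span it rose 1.47-fold (log2 change 0.55 ± 0.10, adjusted p = 0.000212).

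The single steps of Cd81 were small. Its rise of 0.26 from P18 to P75 (adjusted p = 0.0588) was lost in a fit of only those ages (adjusted p = 0.124) and without replicate 3 of P18 or replicate 2 or 3 of P75 (adjusted p = 0.157, 0.124 and 0.223). Its rise of 0.25 from 6 to 24 months (adjusted p = 0.0941) was lost whichever of the 6 libraries was left out, with an adjusted p of 0.117 to 0.234. It was also lost with no filter on low values (0.126), with equal totals (0.244) and with quantile normalization (0.204). From P75 to 24 months the rise was 0.30 (adjusted p = 0.0275), which was lost under equal totals (adjusted p = 0.101) and without replicate 1 of P75 or replicate 3 of 24 months (adjusted p = 0.133 and 0.102). R74862, a long noncoding RNA on the other strand, shares 30 exon bases with Cd81 and had a mean of 158.5.

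Cd82 and Cd151 rose in steps and then held level. Cd82, known as a metastasis suppressor, was counted at 491, 487 and 313 at P18, 639, 660 and 591 at P75, 1085, 1055 and 897 at 6 months, and 814, 1074 and 1094 at 24 months. The first 3 ages did not overlap, and the 24-month libraries spread around those of 6 months. Its log2 changes were 0.58 ± 0.15 (adjusted p = 0.00646), 0.68 ± 0.15 (adjusted p = 0.00146) and -0.03 ± 0.15 (adjusted p = 0.904) in the consecutive steps. Without replicate 3 of P18 the first was 0.36 (adjusted p = 0.02), and the rise over the whole span was 1.01 in place of 1.22.

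Cd151, a partner of laminin-binding integrins, had the largest rise over the whole span. Counts of 206, 238 and 159 at P18 became 284, 272 and 256 at P75, 569, 553 and 513 at 6 months, and 506, 568 and 575 at 24 months. The step from P75 to 6 months was 2.01-fold (log2 change 1.01 ± 0.13, adjusted p = 8.01e-06), larger than that from P18 to P75 (0.45 ± 0.13, adjusted p = 0.00919), though that difference was not tested. Without replicate 3 of P18 the earlier step was 0.29 (adjusted p = 0.0367). From 6 to 24 months the Cd151 libraries overlapped and the change was 0.01 (adjusted p = 0.961). From P18 to 24 months it rose 2.76-fold (log2 change 1.47, adjusted p = 4.58e-08), and by 1.31 without replicate 3 of P18. In the step from P75 to 6 months, in which Cd82 and Cd151 rose, 4 of 6 endothelial markers rose and 0 fell, with a median of 0.76. Cldn5 and Cdh5 were not called (-0.265 and 0.284, adjusted p = 0.111 and 0.293). Of 8 microglial markers 5 rose and 2 fell, with a median of 0.43. The shares of all genes that rose and fell in that step were 31.2% and 29.4%. The part of these markers in the rises of Cd82 and Cd151 was not tested. Gm10575, an antisense RNA, overlaps 223 exon bases of Cd151, and whether the counting used strand is not given in the sources used here.

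**Figure D3:**
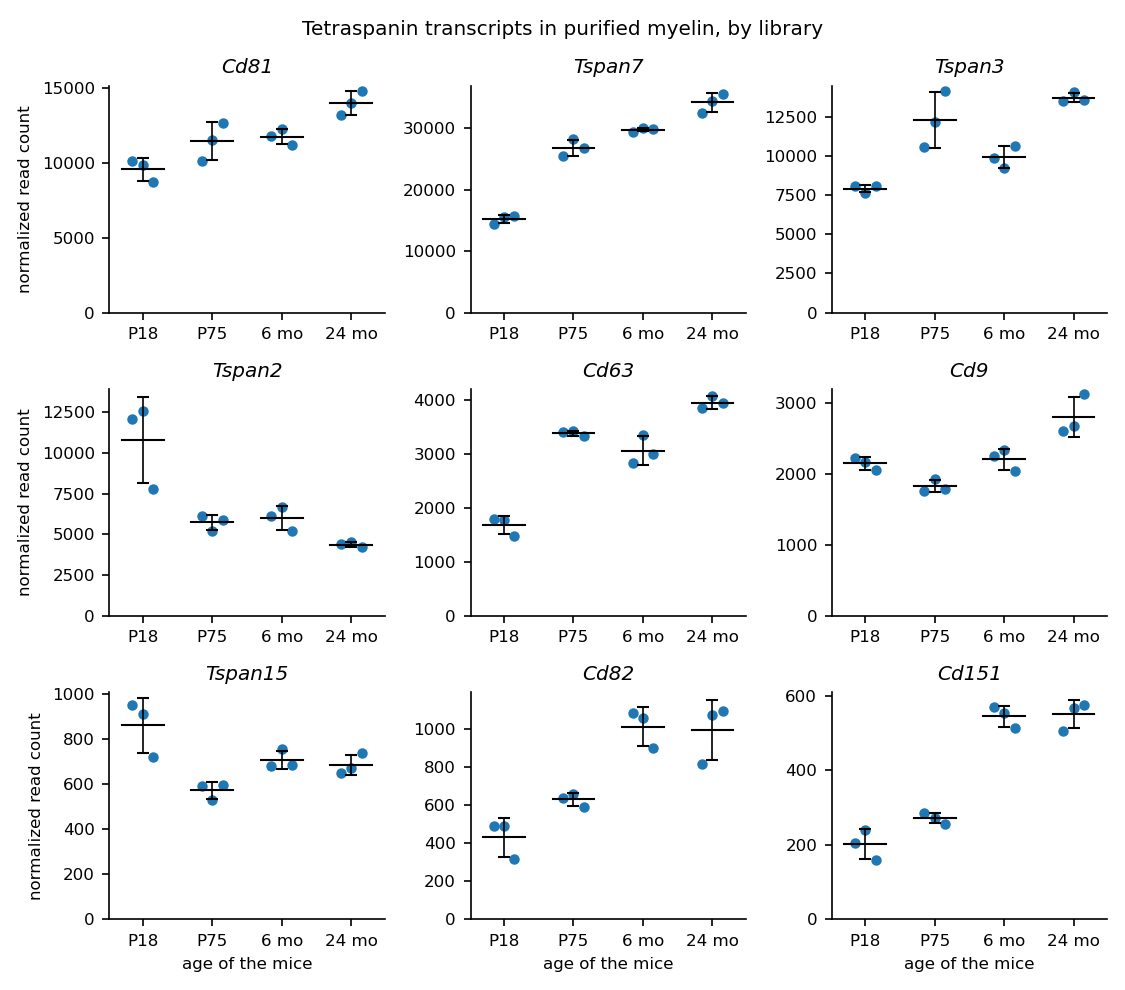
Normalized read count of each of the 9 tetraspanins in the 12 libraries by age, with points for the libraries, a horizontal bar for the mean of each age and error bars of 1 SD. Tspan2 is highest at P18, Cd9 is lowest at P75, Cd82 and Cd151 step up between P75 and 6 months, and Tspan7 goes from 14477 in its lowest library to 35636 in its highest.

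Tspan7, an X-linked tetraspanin that binds Pick1 and acts in glutamate receptor traffic in neurons, had the highest normalized read counts of the 9 before correction for length. They were 14477, 15491 and 15668 at P18, 25527, 28163 and 26792 at P75, 29433, 30031 and 29876 at 6 months, and 32515, 34492 and 35636 at 24 months. No ages overlapped, and each was higher than the age before. Its rise from P18 to P75 was 1.76-fold (log2 change 0.82 ± 0.10, adjusted p = 2.09e-05). The later steps of 0.15 and 0.20 were not called (adjusted p = 0.233 and 0.187). DESeq2 on the recovered reads called both of them (adjusted p = 0.069 and 0.0195). Together they made a rise of 0.35 from P75 to 24 months that was called (adjusted p = 0.0117). The sum of the 6 neuronal markers was 135459 to 166796 at P18 and 165932 to 191836 at P75. It was 138317 to 141480 at 6 months and 132644 to 137568 at 24 months. Snap25 made up most of that sum, with a mean of 107596.5 over the 12 libraries. The mean log2(normalized read count + 1) of the 6 was 13.28 to 13.59 at P18 and 13.18 to 13.4 at P75. It was 13.6 to 13.69 at 6 months and 13.39 to 13.55 at 24 months. Of these markers 1 rose and 3 fell from P18 to P75 (25.9% and 22.9% of all genes). From P75 to 24 months 1 rose (Syt1, by 2.04) and 2 fell (28.8% and 26.1% of all genes). Their part in the rise of Tspan7 was not tested.

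Tspan15, which escorts the protease Adam10 to the surface, had its highest mean at P18. It was counted at 954, 911 and 723 at P18, 593, 528 and 596 at P75, 683, 756 and 687 at 6 months, and 651, 670 and 737 at 24 months. P75 was lowest without overlap, and replicate 3 of P18 lay within the range of the later ages. The fall from P18 to P75 was 0.58 ± 0.11 on the log2 scale (adjusted p = 0.000386), or 0.70 without replicate 3 of P18, and the gain from P75 to 6 months was 0.31 ± 0.11 (adjusted p = 0.021). From 6 to 24 months the change was -0.05 (adjusted p = 0.79), and over the whole span it was -0.32 ± 0.11 (adjusted p = 0.0135), or -0.44 without that library. The rise of 0.26 from P75 to 24 months (adjusted p = 0.0519) was lost under equal totals (adjusted p = 0.132) and without replicate 2 of P75 or replicate 3 of 24 months (adjusted p = 0.18 and 0.176). Adam10 went the other way between P18 and P75, with a rise of 0.65 ± 0.09 (adjusted p = 4.62e-05). From P75 to 6 months it rose by 0.29 (adjusted p = 0.013), as Tspan15 did, and from 6 to 24 months by 0.30 (adjusted p = 0.0318).

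The 250 bases before the annotated start were read from NCBIM37 for the 3 genes that fell from P18 to P75 and for the pair that rose most. Capitals mark matches on either strand to 5 short motifs that are spelled out after the sequences.
Tspan2 (chr3:102538202-102538451, plus strand): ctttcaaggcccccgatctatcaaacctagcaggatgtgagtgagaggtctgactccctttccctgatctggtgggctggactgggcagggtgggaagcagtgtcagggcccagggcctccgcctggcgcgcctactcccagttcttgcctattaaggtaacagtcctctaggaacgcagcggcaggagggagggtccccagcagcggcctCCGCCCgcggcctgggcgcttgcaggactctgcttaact
Cd9 (chr6:125444810-125445059, minus strand): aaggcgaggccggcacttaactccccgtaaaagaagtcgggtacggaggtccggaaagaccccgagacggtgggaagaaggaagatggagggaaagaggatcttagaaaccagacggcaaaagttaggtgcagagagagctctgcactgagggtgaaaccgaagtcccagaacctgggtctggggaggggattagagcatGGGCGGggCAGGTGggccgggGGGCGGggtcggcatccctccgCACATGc
Tspan15 (chr10:61693975-61694224, minus strand): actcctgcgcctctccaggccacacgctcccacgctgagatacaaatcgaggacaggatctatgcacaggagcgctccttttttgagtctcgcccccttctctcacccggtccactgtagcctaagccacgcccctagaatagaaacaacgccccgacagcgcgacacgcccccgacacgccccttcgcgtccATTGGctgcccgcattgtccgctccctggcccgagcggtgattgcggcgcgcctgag
Cd63 (chr10:128345725-128345974, plus strand): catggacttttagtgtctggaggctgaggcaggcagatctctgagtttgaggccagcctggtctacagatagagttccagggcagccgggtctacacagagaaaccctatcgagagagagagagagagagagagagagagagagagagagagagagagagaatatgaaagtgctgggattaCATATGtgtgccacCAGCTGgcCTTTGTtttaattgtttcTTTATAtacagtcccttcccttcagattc
Tspan7 (chrX:10062034-10062283, plus strand): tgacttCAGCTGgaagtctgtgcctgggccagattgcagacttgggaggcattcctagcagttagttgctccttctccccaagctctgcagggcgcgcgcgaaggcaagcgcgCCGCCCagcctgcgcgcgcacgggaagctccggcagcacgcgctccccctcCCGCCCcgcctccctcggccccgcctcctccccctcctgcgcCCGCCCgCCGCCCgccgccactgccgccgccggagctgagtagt
The same windows were read for 22362 protein-coding genes. The GC box, searched as GGGCGG, was in 39.6% of them. The CCAAT box, searched by those 5 letters, was in 35.0%. The TATA box, searched as TATAAA, was in 12.3%. The E-box, searched as CANNTG, was in 63.6%. The SOX element, searched as ACAAAG, was in 15.4%. No match of different motifs overlapped in the 5 sequences. Tspan2 held 1 GC box and no other of these motifs, Tspan15 held 1 CCAAT box, and Cd9 held 2 GC boxes and 2 E-boxes. Tspan7 held 4 GC boxes and 1 E-box, and Cd63 held a TATA box, a SOX element and 2 E-boxes. The window of Tspan7 had 27 CpG dinucleotides and that of Tspan15 24, above the upper quartile of 18, while the window of Cd63 had 2, below the lower quartile of 3. The start used in these cells may differ from the annotated start. A match describes the letters only.

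The genes lie apart in the genome. Tspan2 is on chr3:102538452-102576215, Cd9 on chr6:125410284-125444809, Tspan15 on chr10:61648144-61693974, Cd63 on chr10:128345975-128349872 and Tspan7 on chrX:10062284-10173731. Cd81 and Cd151 share a chromosome, at chr7:150238644-150253839 and chr7:148653261-148657378. Cd82 is on chr2:93259268-93303297 and Tspan3 on chr9:55983692-56008877. Pseudogenes named for Cd9 and Cd63 exist in the annotation (Cd9-ps and Cd63-ps), so reads of these genes could have been split or lost in the counting.

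Of 24 other tetraspanins listed, 22 were in the table and 17 passed the filter. From P18 to P75, 8 of them rose and 1 fell (25.9% and 22.9% of all genes), with a median of 0.29. From P75 to 6 months 13 rose and 0 fell (31.2% and 29.4% of all genes), with a median of 0.51. From 6 to 24 months 5 rose and 1 fell (16.6% and 12.7% of all genes), with a median of 0.19. Over the whole span 14 rose and 0 fell (34.7% and 34.3% of all genes), with a median of 1.05, and from P75 to 24 months 15 rose and 0 fell (28.8% and 26.1%). The most abundant of them, Tspan13, went from 1436.7 ± 173.0 at P18 to 5228.1 ± 419.2 at 24 months (SD, n = 3), a 3.65-fold rise (adjusted p = 4.39e-10). Most of that came from P75 to 6 months, when it rose by 1.24 ± 0.10.

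Tspan5 (1.05 from P18 to 24 months, adjusted p = 6.14e-08) and Tspan31 (0.78, adjusted p = 2.92e-06) rose as well. Among those with a mean of at least 100 at either age, the largest rise from P18 to P75 was that of Rom1, a photoreceptor disc tetraspanin, by 1.39 ± 0.15 (adjusted p = 5.45e-06), and the only fall was that of Tspan17 by 0.40 (adjusted p = 0.0348). With the same limit, Tspan11 rose most from P75 to 6 months, by 1.31 (adjusted p = 6.11e-05), and below it Tspan8 rose by 1.54 (adjusted p = 0.00277). From 6 to 24 months Cd53, a leukocyte tetraspanin, rose most within the limit, by 0.80 ± 0.14 (adjusted p = 0.00198). Tspan9 fell by 0.50 (adjusted p = 0.00992). Of 8 microglial markers 3 rose and 0 fell in that step, where 16.6% and 12.7% of all genes did. Upk1b, below the limit, rose by 1.08 in that step (adjusted p = 0.0804). Tspan8 and Upk1b were singled out after their values were seen.

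Of 9 known binding partners of tetraspanins, 4 rose and 2 fell from P18 to P75, where 25.9% and 22.9% of all genes did, and 2 rose and 1 fell from 6 to 24 months, where 16.6% and 12.7% did. From P75 to 6 months 7 rose and 0 fell (31.2% and 29.4% of all genes). Over the whole span 5 rose and 1 fell (34.7% and 34.3%), with a median of 0.53, and from P75 to 24 months 6 rose and 0 fell (28.8% and 26.1%), with a median of 0.37. Igsf8, an immunoglobulin protein that binds Cd9 and Cd81, rose by 0.69 from P75 to 6 months (adjusted p = 5.31e-05) and by 1.23 over the whole span (adjusted p = 4.61e-08). Adam10 rose 2.37-fold over the whole span (adjusted p = 9.18e-09). The laminin receptor subunit Itga6 rose by 1.62 from P75 to 6 months (adjusted p = 2.45e-06), the step in which Cd151 rose most, and then fell by 0.62 (adjusted p = 0.0232). Itga3, another such subunit, rose by 0.45 from P18 to P75 (adjusted p = 0.00935), by 0.47 from P75 to 6 months (adjusted p = 0.0052) and by 0.30 from 6 to 24 months (adjusted p = 0.0998). Pick1 fell by 0.31 from P18 to P75 (adjusted p = 0.0146), while Tspan7 rose.

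Of 15 genes of the machinery that forms and releases exosomes, 3 rose and 7 fell from P18 to P75, 4 rose and 4 fell from P75 to 6 months, 1 rose and 4 fell from 6 to 24 months, 2 rose and 8 fell over the whole span, and 0 rose and 5 fell from P75 to 24 months. The shares of all tested genes that rose and fell were 25.9% and 22.9%, 31.2% and 29.4%, 16.6% and 12.7%, 34.7% and 34.3%, and 28.8% and 26.1% in the same order, and the counts from P75 to 6 months lay near them. Their median over the whole span was -0.23, where that of the 9 tetraspanins was 0.79. The difference between the lists was not tested.

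Tsg101, a subunit of the sorting complex that loads vesicles, fell by 0.46 from P75 to 6 months (adjusted p = 0.000189) and by 0.58 over the whole span (adjusted p = 9.4e-06). Rab11a, a GTPase of recycling endosomes, fell by 0.57 from P75 to 6 months (adjusted p = 9.52e-05) and rose by 0.24 from 6 to 24 months (adjusted p = 0.0789). Hgs, which sorts ubiquitinated cargo, fell by 0.42 from P18 to P75, rose by 0.46 to 6 months and fell by 0.42 to 24 months (adjusted p = 0.00104, 0.000292 and 0.00409). Smpd3, the neutral sphingomyelinase of exosome release, rose by 0.67 over the whole span (adjusted p = 0.000228), and the ATPase Vps4b by 0.30 (adjusted p = 0.0352). Chmp4b fell by 0.37 from P18 to P75 (adjusted p = 0.00207), Rab35 rose by 0.43 from P75 to 6 months (adjusted p = 0.000288), and Flot2 fell by 0.37 from 6 to 24 months (adjusted p = 0.00611).

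**Figure D4:**
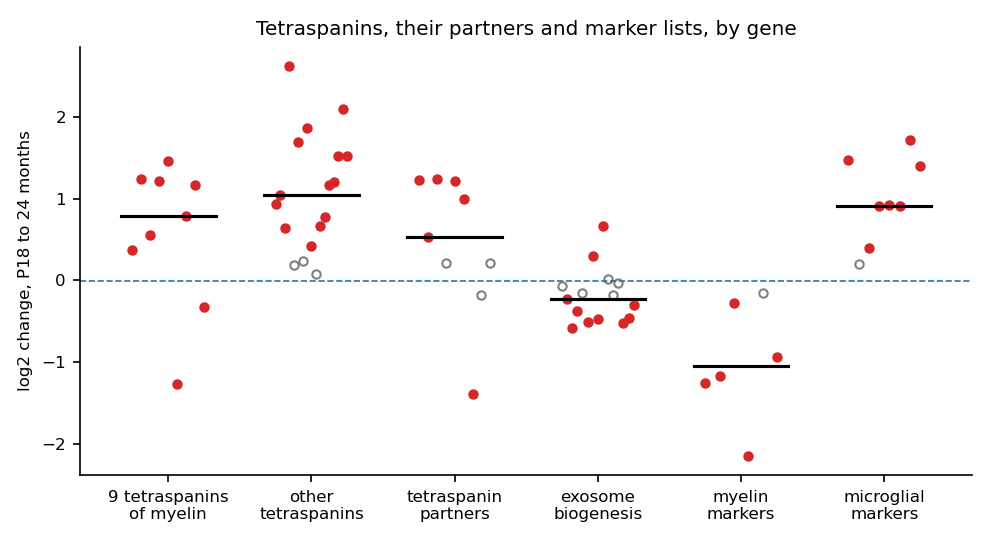
Log2 change from P18 to 24 months of the genes of 6 lists (the 9 tetraspanins, other tetraspanins, their binding partners, exosome machinery, myelin markers and microglial markers), with a point for each tested gene (filled red where called at an adjusted p under 0.1, open grey where not), a black bar for the list's median and a dashed line for the median of all genes. The medians from left to right are 0.79, 1.05, 0.53, -0.23, -1.05 and 0.92.

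The profiles over the 12 libraries were compared with those of 11305 genes with a mean of at least 100, by the root mean square difference of log2 values centred on each gene's own mean. The nearest to Tspan2 were Mog (0.137), a myelin surface glycoprotein, Abtb2 (0.143) and Smyd1 (0.143), where Tspan2 itself varied by 0.498 around its mean. The nearest to Cd63 were Cldn10 (0.081), Atp1b3 (0.097) and Tmem38b (0.099), where Cd63 varied by 0.476. Cd82 lay nearest to Clu (0.095), the secreted chaperone clusterin, and Paqr7 (0.095), then Cybasc3 (0.111). Tspan7 lay nearest to Pigk (0.062) and Tmem56 (0.075).

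For Cd81 the nearest were Ptplb (0.059), Edem2 (0.065) and Pla2g12a (0.08), and for Tspan3 Bfar (0.086), Zdhhc20 (0.091) and Spcs2 (0.1). For Cd151 they were D730040F13Rik (0.102), Cd99l2 (0.107) and Ilvbl (0.109). For Cd9 they were Tmem14c (0.095), Tmem189 (0.114) and Trpc2 (0.117), and for Tspan15 Rap1b (0.089), Cpox (0.09) and Socs6 (0.098). Among the 9 tetraspanins themselves, where each has only 8 others to be near to, the closest pair was Cd63 with Tspan7 (0.147), then Cd82 with Cd151 (0.175) and Cd81 with Tspan3 (0.182), and the most distant pair was Cd151 with Tspan2 (1.053). The points share libraries and their depth, so these distances describe the libraries and carry no test.

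**Figure D5:**
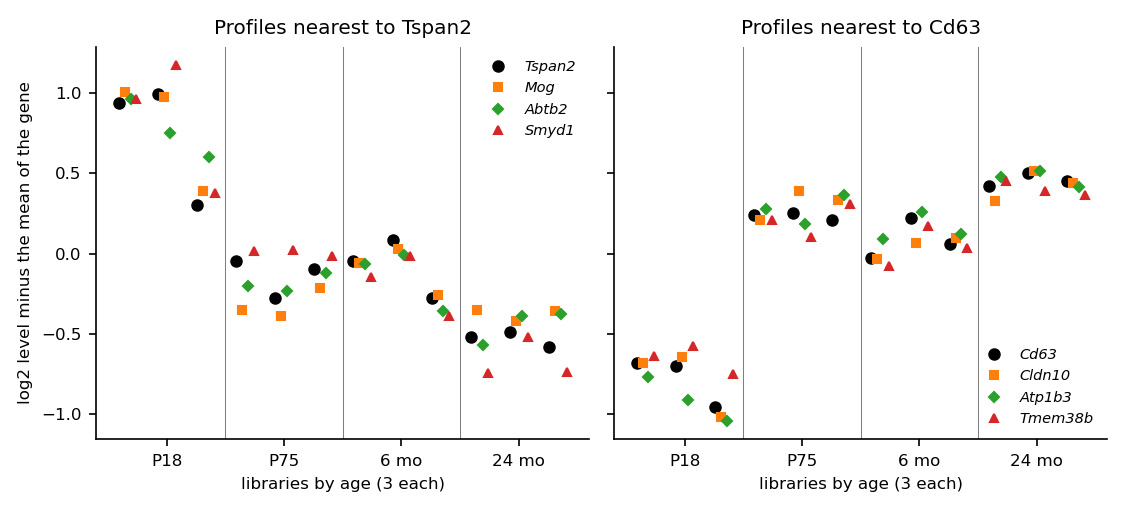
Log2 level minus each gene's own mean in the 12 libraries by age, for Tspan2 (left) and Cd63 (right) in black with the 3 nearest genes in colour. Tspan2, Mog, Abtb2 and Smyd1 are highest at P18 and lie lower in replicate 3 of that age, while Cd63 and its neighbours step up after P18.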

How the data were processed

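RNA of a myelin fraction from mouse brain was sequenced in 12 libraries, 3 for each of 4 ages. The authors aligned reads to mm9 with TopHat (2.0.8 in the processing notes, under the name TopHat2), used SAMtools 0.1.19, counted reads on genes with HTSeq 0.5.4p1 and normalized them with size factors from DESeq. The annotation they counted on, and whether strand was used, are not given in the sources used here. The deposited signal is this normalized read count, with no correction for length.

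Every deposited value was a whole number of reads times the worth of 1 read, within a tolerance of 0.05 read, so the counts could be recovered. They gave 20299052 to 27214385 reads per library, which limit counting error only. Groups came from the labels.

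Ages were compared with limma 3.58.1 (trend, empirical Bayes) in R 4.3.3, on a log2 scale with a pseudocount of 1, over genes with a mean of at least 10, with age alone in the model and a false discovery rate of 0.1 (Benjamini-Hochberg). A log2 change on this scale understates that of low genes. The recovered reads were tested with edgeR 4.0.16 (quasi-likelihood, TMM) and DESeq2 1.42.0 as alternatives. From P18 to P75 edgeR called 3572 genes up and 3508 down. The code was tested on simulated data. The further settings tried were pseudocounts of 0.5 and 10, a mean filter of 100 or none, only the ages compared, a replicate block, equal totals, quantile normalization, a rate of 0.05 and each library left out. Same-numbered libraries of P75 and 6 months deviated together slightly (correlations of 0.161, 0.101 and 0.187), though the mice differ, and the block changed no member's call between those ages. Tables and figures were made with Python 3.11.15.

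The members and lists were chosen with earlier results of these data known. The genes named were all 9 members, other tetraspanins with a mean of at least 1000 or with the largest called rise or fall of a comparison (mean of at least 100 at either age), the 2 largest called rises and falls of the partner and exosome lists, and the 3 nearest profiles of each member. A myelin marker was left out of its list, and a nearest profile of Tspan7 was left out of the text; they are not reported here.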

Additional observations from a re-analysis of the deposited data

How the results depend on the processing

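Of 765 alternative values of the 45 member changes, 713 kept their direction and their side of the threshold, 36 were no longer called, 6 became called and 10 turned sign, none of them called. The sign turned for Cd151 from 6 to 24 months under equal totals (-0.0285) and quantile normalization (-0.0142). With single libraries left out, the change from 6 to 24 months ranged from -0.0314 to 0.0695 for Cd151 and from -0.119 to 0.103 for Cd82, and that from P75 to 6 months from -0.042 to 0.12 for Cd81 and from -0.023 to 0.159 for Tspan2. Quantile normalization gave 2 members that fell from P75 to 6 months in place of 1, and equal totals gave 4 that rose from P75 to 24 months in place of 7. With a library left out, 5 to 6 rose and 2 to 3 fell from P18 to P75, 4 rose and 0 to 2 fell from P75 to 6 months, 3 to 4 rose and 0 to 1 fell from 6 to 24 months, 7 rose and 2 fell from P18 to 24 months, and 5 to 7 rose and 0 to 1 fell from P75 to 24 months. The cause was not tested. Without division by length, 2 to 4 of the 9 members kept their place in the order of levels at an age.

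Libraries with the same replicate number come from different mice and, P75 with 6 months apart, did not deviate together throughout (18 correlations over all age pairs, -0.213 to 0.187, 4 over 0.1). With the replicate block 3 members rose from 6 to 24 months in place of 4, Cd81 being lost (adjusted p = 0.122), and no other member's call changed.

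Over all genes, 2435 rose and 1852 fell from 6 to 24 months. A rate of 0.05 gave 1607 and 1249. Leaving out replicate 1 or 2 of 6 months gave 1454 and 1024 or 1582 and 1181, and leaving out replicate 1 or 2 of 24 months gave 1739 and 1082 or 1394 and 1098.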
